A study of Homo sapiens with 12 samples.

Results

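The BH3-only genes encode the proteins that start the mitochondrial pathway of apoptosis, and 8 of them were followed here in the gastric cancer cell line SNU638, an established human line in which SKA2 had been knocked down. The 8 genes were the rows of the deposited table with the symbols BMF, BCL2L11, BBC3, PMAIP1, BID, BAD, BIK and HRK, out of 17303 genes in all, and all 8 passed the filter on low counts, as did 12868 genes of the table. Of these, 7 were listed because they belong to the family. BMF was singled out by its measured rise over the control in the knockdown lines, so that rise is described without a test. A mean of at least 1 CPM (counts scaled to a fixed library total) and a call as higher with each hairpin were found for 1756 genes. Among these, BMF had the largest mean log2 fold change, 3.66, and THSD7A came next at 3.30. BMF entered that set through its own calls against the control, so its place there is a description and not a test. Among all 12868 tested genes, BMF ranked 67, 9 and 18 by log2 fold change in order of hairpin number. By the average of these 3 changes it ranked 11.

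All 12 libraries came from SNU638 cells labelled wild type that had been infected with lentivirus and kept under puromycin until resistant clones formed stable lines. The control line carried a control hairpin, and the other 3 lines carried SKA2 hairpin 1, SKA2 hairpin 2 or SKA2 hairpin 3, with 3 libraries of polyadenylated RNA per line. Control and knockdown lines therefore share the virus and the drug selection. The labels do not say whether a line is 1 clone or a pool, nor whether its libraries came from separate cultures. The p-values thus measure the spread between libraries of a line, which may be technical, and a difference between lines cannot be told apart from a difference between hairpins. The series set out to find genes whose expression depends on SKA2, a subunit of the complex that holds chromosomes to spindle microtubules at the kinetochore.

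Proteins of the BCL2 family decide whether the outer mitochondrial membrane stays intact. The effectors BAX and BAK1 open pores in it, guardians such as BCL2L1 and MCL1 hold the effectors back, and BH3-only proteins dock into the guardians' groove through a short helix, the BH3 domain, or engage the effectors directly. Each BH3-only protein answers to its own upstream signal, which can act on transcription, on phosphorylation, on cleavage or on release from the cytoskeleton, so an mRNA level describes only part of what a cell holds ready.

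The libraries held between 14693343 and 16739155 counts. SKA2 stood at 117 to 126 CPM in the control libraries and at 22.3 to 28.0 CPM in the 9 knockdown libraries, and the 2 ranges did not overlap. CPM are scaled here to the library total after TMM, a correction for the makeup of the library. Levels of different genes are compared only as the authors' TPM (transcripts scaled to a fixed total), which are scaled to length. The libraries also differed in how counts depended on transcript length. The slope of a library's log2 CPM, relative to each gene's mean, ran per doubling of length from -0.317 to -0.0558 in the control line, from 0.0823 to 0.107 in the hairpin 1 line, from 0.15 to 0.2 in the hairpin 2 line and from -0.168 to 0.0917 in the hairpin 3 line. The first control library and the first hairpin 3 library stood apart from the others of their lines. The length implied by counts and FPKM was 4324 bases for BMF, 4630 for BCL2L11 and 5558 for HRK, but 679 for BAD and 674 for BIK, so values with an offset for length are also given below for several of the changes. The marker sums that follow are the exception, since their CPM are scaled to the plain library total without TMM. Of the 5 epithelial markers all were detected, and their summed CPM was 2501 to 3380 in the control line, 2218 to 2318 under hairpin 1, 1997 to 2661 under hairpin 3 and 1017 to 1047 under hairpin 2. The summed CPM was at most 8.85 for 6 fibroblast genes, at most 1.26 for 6 leukocyte genes and at most 0.603 for 5 endothelial genes in any library. The part of the lower epithelial sum of the hairpin 2 line in the results below was not tested.

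BMF lies on the minus strand of chromosome 15 from 40087890 to 40108892 (GRCh38, GENCODE v29), BCL2L11 on the plus strand of chromosome 2 from 111119378 to 111168447, and BBC3 on the minus strand of chromosome 19 from 47220822 to 47232766. The 250 bases before their start sites are shown because the CPM of these genes did not overlap with the control under any hairpin. For BMF this follows from how it was chosen. In TPM, BBC3 with hairpin 2 (51.5 to 55.1) did overlap the control (48.7 to 57.4). The share of all genes without overlap was not counted. The sequences are from RefSeq (GRCh38.p14), read 5′ to 3′ on the gene's own strand at chr15:40108880-40109129, chr2:111120664-111120913 and chr19:47232668-47232917. Capitals mark matches, on either strand, to a few short motifs of factors that are known to act on BH3-only genes or on many promoters.
BMF: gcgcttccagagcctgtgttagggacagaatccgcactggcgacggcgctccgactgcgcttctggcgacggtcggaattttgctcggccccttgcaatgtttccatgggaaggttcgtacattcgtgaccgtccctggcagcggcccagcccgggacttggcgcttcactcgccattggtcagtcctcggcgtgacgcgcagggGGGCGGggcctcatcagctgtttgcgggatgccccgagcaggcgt
BCL2L11: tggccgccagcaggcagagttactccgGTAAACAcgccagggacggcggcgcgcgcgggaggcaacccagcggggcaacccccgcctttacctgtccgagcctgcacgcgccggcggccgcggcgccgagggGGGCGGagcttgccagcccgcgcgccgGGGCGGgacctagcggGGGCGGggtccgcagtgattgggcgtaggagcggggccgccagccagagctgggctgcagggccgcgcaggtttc
BBC3: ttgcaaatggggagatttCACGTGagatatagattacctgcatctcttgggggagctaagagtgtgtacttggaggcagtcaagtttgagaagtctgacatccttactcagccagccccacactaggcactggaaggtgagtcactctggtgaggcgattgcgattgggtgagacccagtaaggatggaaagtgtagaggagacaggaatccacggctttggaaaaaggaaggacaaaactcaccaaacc
The motifs searched were the FOXO core TGTTTAC, the ATF4-CEBP composite TGATGNAA, the E2F letters TTTCCCGC and TTTGGCGC, the cyclic AMP response element TGACGTCA, the E-box CACGTG and the GC-box GGGCGG. The BCL2L11 window holds 1 FOXO core, on the complementary strand, a motif found in 2.98% of 35116 RefSeq windows of the same length, and 3 GC-boxes. The BMF window holds 1 GC-box, as do 42.6% of all windows, and none of the other letters. The BBC3 window holds 1 E-box, as do 6.34% of all windows. A second RefSeq window of BMF, at chr15:40106967-40107216, holds none of these motifs. Windows were found for 7 of the 8 genes, and BIK had none in the table used. Among the others, the ATF4-CEBP composite occurred in the HRK window, and 3.14% of all windows hold it. These are matches of letters, not shown sites of binding.

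BMF, the BCL2-modifying factor, is a BH3-only protein that is tethered to the actin cytoskeleton through a dynein light chain and is known for its part in the death of detached epithelial cells. It was nearly silent in the control line, with 31 to 40 counts per library. Its level was 2.53, 2.13 and 1.98 CPM in the control libraries, 11.8, 10.1 and 9.96 CPM under hairpin 1, 138, 136 and 126 CPM under hairpin 2, and 15.0, 15.4 and 16.3 CPM under hairpin 3. All 9 knockdown libraries were above all control libraries, and the 4 lines did not overlap with each other. The means were 2.21 ± 0.287 CPM in the control, 10.6 ± 0.996 with hairpin 1, 133 ± 6.50 with hairpin 2 and 15.6 ± 0.629 with hairpin 3 (SD, n = 3 each). These means are 4.79-fold, 60.2-fold and 7.02-fold above the control. The fitted log2 fold changes were 2.26 ± 0.12, 5.91 ± 0.11 and 2.81 ± 0.11 (SE), which the choice of the gene rests on and which carry no test here.

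The differences between hairpins were not the measure by which BMF was chosen, and they were tested. They come from the same knockdown libraries that the choice used, so their p-values are not independent of that choice. The hairpin 2 line held 12.6 times as much BMF as the hairpin 1 line, a log2 difference of 3.65 ± 0.09 (SE, adjusted p = 6.77e-10, edgeR quasi-likelihood test), and 8.58 times as much as the hairpin 3 line, with hairpin 3 minus hairpin 2 at -3.10 ± 0.09 (adjusted p = 2.08e-09). The hairpin 3 line held 1.47 times as much as the hairpin 1 line, at 0.55 ± 0.09 (adjusted p = 0.006). That smaller difference was not called on the TPM scale, at 0.31 with adjusted p = 0.0681 in limma on log2(TPM + 1). SKA2 itself was nearly equal in the 3 knockdown lines, at means of 24.0, 25.3 and 26.6 CPM in order of hairpin number, so BMF was spread far wider over these lines than SKA2 was.

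**Figure D1:**
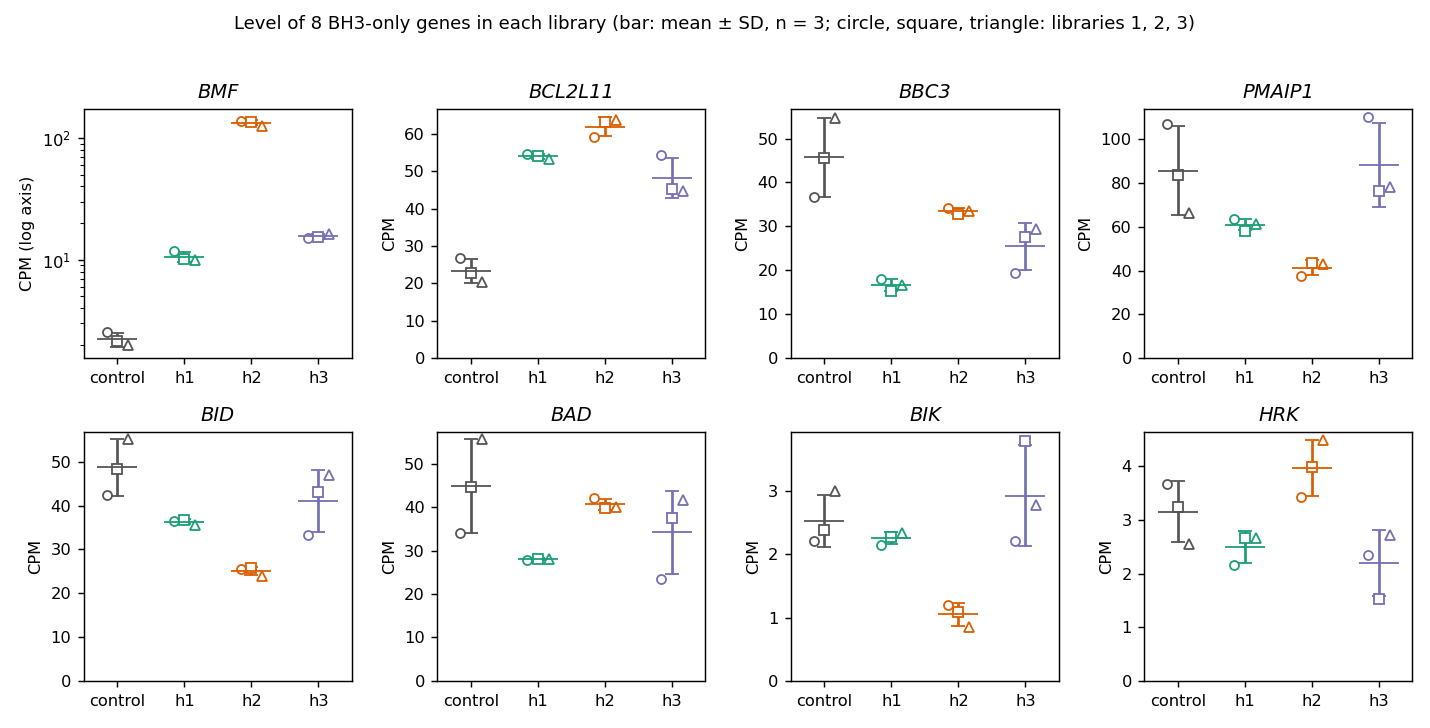
CPM of each BH3-only gene (vertical axes from 0, except BMF on a log axis) in the 12 libraries of the control line and the lines with hairpin 1 (h1), hairpin 2 (h2) and hairpin 3 (h3), with the mean and SD of 3 libraries. BMF runs from 1.98 to 138 CPM with no overlap between lines, BCL2L11 is higher in all 9 knockdown libraries, and PMAIP1 spreads widely within the control and hairpin 3 lines.

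BCL2L11, or BIM, is the member that binds all guardians tightly and, like BMF, can be held by a dynein light chain. It was the other member that rose with every hairpin. The control libraries held 26.9, 22.8 and 20.3 CPM, against 54.7, 54.0 and 53.4 CPM under hairpin 1, 59.1, 63.1 and 63.7 CPM under hairpin 2 and 54.4, 45.4 and 44.8 CPM under hairpin 3. All knockdown libraries were above all control libraries, and the first libraries of the control and hairpin 3 lines were the highest of their lines. The log2 fold changes were 1.21 ± 0.11 with hairpin 1 (adjusted p = 4.82e-06), 1.41 ± 0.11 with hairpin 2 (adjusted p = 3.77e-07) and 1.05 ± 0.11 with hairpin 3 (adjusted p = 1.45e-05; SE, edgeR). With offsets for length the changes were 0.92, 1.04 and 0.91, still called with each hairpin. In contrast to BMF, the 3 knockdown lines lay close together for BCL2L11. Hairpin 2 minus hairpin 1 was 0.20, with a 95% interval from -0.02 to 0.42, and was called with length offsets (0.12, adjusted p = 0.0492), with only the compared libraries (adjusted p = 0.00175), without the first hairpin 3 library (adjusted p = 0.0383) and without it and the first control library (adjusted p = 0.0031). Hairpin 3 minus hairpin 1 was -0.17, with an interval from -0.39 to 0.06, and was called without the first control and first hairpin 3 libraries (-0.25, adjusted p = 0.00268). Hairpin 3 was below hairpin 2 by a called difference, -0.36 ± 0.10 (adjusted p = 0.00826). An antisense-strand gene, MIR4435-2HG, overlaps 727 exonic bases of BCL2L11, and BMF-AS1 overlaps 461 of BMF. The library protocol names no step that keeps the strand, so reads from these partners cannot be told apart from reads of the members.

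BBC3, known as PUMA, is a BH3-only protein that can engage every guardian. It fell in the count-based fit with each hairpin. The control libraries held 36.8, 45.6 and 54.8 CPM, against 18.1, 15.2 and 16.7 CPM under hairpin 1, 34.2, 32.8 and 33.5 CPM under hairpin 2 and 19.5, 27.6 and 29.5 CPM under hairpin 3. Every knockdown library was below every control library, with the hairpin 2 line nearest to the control. The log2 fold changes were -1.46 ± 0.17 (adjusted p = 3.57e-05), -0.45 ± 0.16 (adjusted p = 0.0224) and -0.84 ± 0.16 (adjusted p = 0.0014; SE, edgeR) in order of hairpin number. The fall with hairpin 2 did not hold under other scalings, since the value was 0.07 with length offsets and 0.03 on the log2(TPM + 1) scale, where the median of all tested genes was itself 0.33, and neither was called. It also lost its call without the third control library, at -0.30 (adjusted p = 0.104), or without any 1 of the hairpin 2 libraries (adjusted p from 0.0511 to 0.0667). With hairpin 1 and hairpin 3 BBC3 stayed called as lower in each alternative tried at the threshold of 0.05, from -1.60 to -1.08 and from -0.98 to -0.65. The lines differed among themselves. BBC3 was 2.01 times as high with hairpin 2 as with hairpin 1, at 1.01 ± 0.17 (adjusted p = 0.000282), whereas the calls of hairpin 3 against hairpin 1 (0.62, adjusted p = 0.0427) and hairpin 3 against hairpin 2 (-0.39, adjusted p = 0.0492) lay at the threshold and were each lost without the second control library, without any 1 library of hairpin 1 or hairpin 2, and without either of 2 hairpin 3 libraries (adjusted p up to 0.171).

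PMAIP1, or NOXA, is an ATF4 target whose protein binds chiefly MCL1 and BCL2A1. Its libraries ran at 107, 83.5 and 66.4 CPM in the control line, 63.4, 58.2 and 61.4 CPM under hairpin 1, 37.5, 43.6 and 43.0 CPM under hairpin 2 and 110, 76.3 and 78.1 CPM under hairpin 3. The hairpin 2 libraries were the lowest, and the hairpin 3 libraries overlapped the control. PMAIP1 fell with hairpin 2, by 1.05 on the log2 scale (SE 0.17, adjusted p = 0.000181, edgeR), and did not change detectably with hairpin 3, at 0.04 with a 95% interval from -0.33 to 0.41. Its fall with hairpin 1, at -0.49 (adjusted p = 0.0257), was lost with length offsets (-0.28, adjusted p = 0.242) and on the log2(TPM + 1) scale (-0.05). It was also lost without the first control library (-0.30, adjusted p = 0.102), the second control library (adjusted p = 0.0507), or hairpin 1 library 2 or 3 (adjusted p = 0.0619 and 0.0603). The fall with hairpin 2 was -0.65 on the log2(TPM + 1) scale and still called. The difference of hairpin 3 from hairpin 2 was called, at 1.09 ± 0.17 (adjusted p = 0.00019), and so was that of hairpin 2 from hairpin 1, at -0.56 (adjusted p = 0.0154), though not with length offsets (adjusted p = 0.0674) or without the first hairpin 2 library (adjusted p = 0.0605).

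BID is the member that carries the death receptor signal to mitochondria after CASP8 has cut it. It fell with hairpin 2 from 42.5, 48.3 and 55.3 CPM in the control libraries to 25.6, 25.7 and 24.0 CPM, a log2 fold change of -0.96 ± 0.13 (SE, adjusted p = 3.14e-05, edgeR), with no overlap, and of -0.48 on the log2(TPM + 1) scale, also called. With hairpin 1 it stood at 36.5, 36.7 and 35.6 CPM and was called lower, at -0.42 (adjusted p = 0.0108), but was at -0.05 and not called on the log2(TPM + 1) scale. With hairpin 3 the 33.2, 43.1 and 47.0 CPM overlapped the control, at -0.24 (adjusted p = 0.119). BID was lower with hairpin 2 than with either other hairpin, by 0.53 against hairpin 1 (adjusted p = 0.00347) and with hairpin 3 minus hairpin 2 at 0.71 (adjusted p = 0.000421).

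BAD, a sensitiser that is inactive while phosphorylated by kinases such as AKT1, had the highest mean TPM of the members in every line, although PMAIP1 was above it in the first control library (97.0 against 83.1 TPM) and the first hairpin 3 library (100.2 against 61.8 TPM). Its CPM ran at 34.1, 44.7 and 55.8 in the control libraries, 27.8, 28.2 and 28.2 with hairpin 1, 42.0, 39.7 and 40.1 with hairpin 2 and 23.4, 37.5 and 41.6 with hairpin 3. The hairpin 1 libraries lay below all control libraries, and those of hairpin 2 and hairpin 3 overlapped the control. The log2 fold change was -0.68 ± 0.20 with hairpin 1 (SE, adjusted p = 0.011, edgeR), a call that was lost with length offsets (-0.17, adjusted p = 0.125), on the log2(TPM + 1) scale (-0.29, adjusted p = 0.064) and without the third control library (-0.49, adjusted p = 0.053). With hairpin 2 it was -0.14 (adjusted p = 0.518) in the count-based fit and 0.51 with length offsets (adjusted p = 0.000172), so the direction of BAD in that line depends on the scaling. Without the first control and first hairpin 3 libraries it was called lower there, at -0.31 (adjusted p = 0.00186). BAD was higher with hairpin 2 than with hairpin 1, at 0.53 (adjusted p = 0.0362), a call lost without any 1 library of either line (adjusted p from 0.0658 to 0.0861). BAD shares 404 exonic bases with GPR137 on the opposite strand, which stood at -0.90, -0.40 and -0.56 in order of hairpin number.

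BIK, a member located at the endoplasmic reticulum, had only 13 to 60 counts per library. The hairpin 2 libraries, at 1.21, 1.09 and 0.857 CPM, lay below the 2.22, 2.39 and 3.00 CPM of the control, a log2 fold change of -1.26 ± 0.24 (SE, adjusted p = 0.000543, edgeR) that was -0.62 with length offsets (adjusted p = 0.0165). It overlapped the control with hairpin 1, at -0.17 (95% interval -0.63 to 0.30, and 0.33 with length offsets, not called), and with hairpin 3, at 0.21 (-0.24 to 0.66). BIK was 2.14 times as high with hairpin 1 as with hairpin 2, the difference of hairpin 2 from hairpin 1 being -1.10 ± 0.25 (adjusted p = 0.00246). HRK, a member best known from neurons, had 24 to 68 counts per library and was not called against the control with any hairpin, at -0.34, 0.33 and -0.52 (adjusted p = 0.192, 0.163 and 0.0701). With length offsets it was called lower with hairpin 1 (-0.74, adjusted p = 0.00634) and hairpin 3 (-0.70, adjusted p = 0.01), and on the log2(TPM + 1) scale it was called higher with hairpin 2 (0.39, adjusted p = 0.0114), where length offsets gave -0.18 (not called). Its 3.42, 3.99 and 4.48 CPM under hairpin 2 lay above the 2.16, 2.66 and 2.66 CPM under hairpin 1 and the 2.34, 1.52 and 2.72 CPM under hairpin 3, and both differences were called (adjusted p = 0.0175 and 0.00445).

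**Figure D2:**
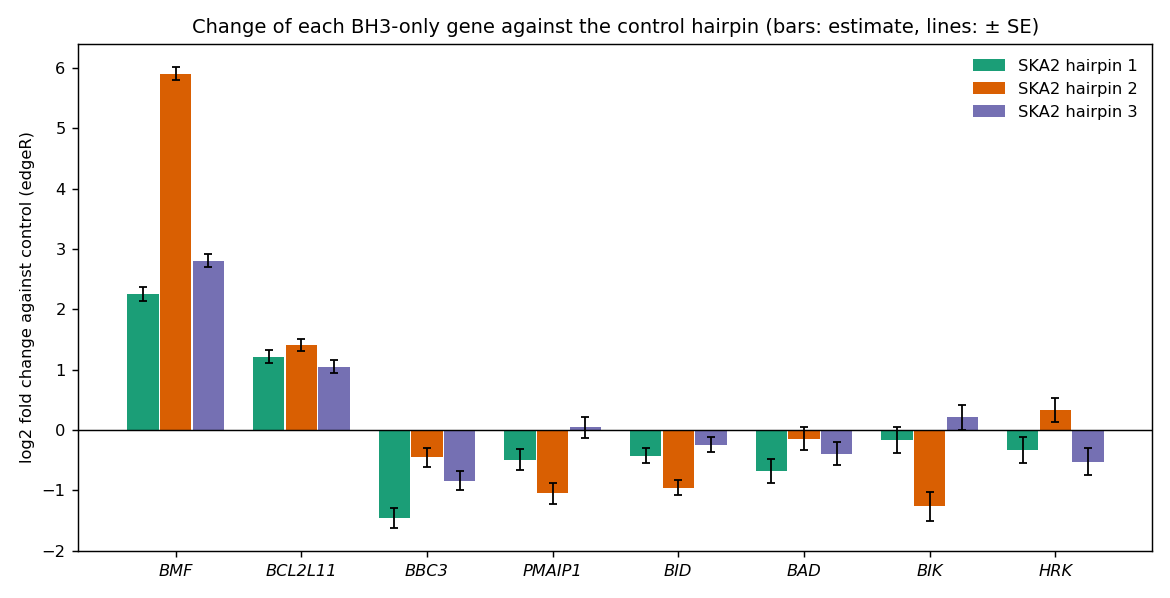
Fitted log2 fold change of each BH3-only gene against the control hairpin (bars) with its SE (lines) for the 3 SKA2 hairpins. BMF and BCL2L11 are above 0 with each hairpin, BBC3 is below 0 with each, and BIK, PMAIP1 and HRK have both signs.

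Counted over the 7 members other than BMF, 1 was called higher and 4 lower with hairpin 1, where 31.5% of all tested genes were called higher and 31.5% lower. With hairpin 2 the count was again 1 higher and 4 lower, against a background of 36.6% and 37.8%. With hairpin 3 it was 1 higher and 1 lower, against 23.6% and 24% of all genes. The mean of the 3 hairpins gave 1 higher and 4 lower, against 33.7% and 35.8%. The median log2 fold change over all 8 genes was -0.38, -0.30 and -0.10 in order of hairpin number, beside medians of all tested genes of 0.01, -0.02 and 0.01. For 7 genes, each of these counts lies within 2 genes of what the background share gives.

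Same-numbered libraries deviated together only for the control and hairpin 3 lines, and unevenly (r = 0.728, 0.17 and 0.6). Control library 2 was closer to hairpin 3 library 3 (r = 0.23) than to hairpin 3 library 2. A block on the replicate number thus rests on a pairing that is weak for library 2. With the replicate number as a block on the 6 libraries of these lines, 4 members were called lower with hairpin 3, and not 1. BAD was then at -0.40 (adjusted p = 1.64e-07), BID at -0.25 (adjusted p = 0.00027) and HRK at -0.52 (adjusted p = 0.0206), next to BBC3, with sizes close to those of the unblocked fit. Without the first library of both lines the count was 3, with BAD at -0.34 (adjusted p = 0.00339), BID at -0.19 (adjusted p = 0.0351) and BBC3 at -0.81. Shares of all genes called were not counted for either fit, so the counts of 4 and 3 have no background beside them.

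Between the knockdown lines, 3 of the 7 members were higher and 3 lower with hairpin 2 than with hairpin 1, where 28.2% of all genes were higher and 29.4% lower. Hairpin 3 against hairpin 2 gave 3 higher and 3 lower, with a background of 33.4% and 31.9%. Hairpin 3 against hairpin 1 gave 1 higher and 0 lower, with 4.75% and 4.7% of all genes called. No member was lower in that last comparison at an unadjusted p under 0.05 in edgeR, and DESeq2 also called 0 lower. BMF was called in all 3 of these comparisons. Hairpin 1 and hairpin 3 were the pair with the fewest calls among the members with all 12 libraries. Without the first hairpin 3 library that pair had 4 higher in place of 1, and without the first control and first hairpin 3 libraries it had 5 higher and 1 lower, as many in all as hairpin 3 against hairpin 2. The shares of 4.75% and 4.7% belong to the fit of all 12 libraries. No share of all genes was counted for the reduced fits, so their counts have no background beside them. The hairpin 2 line was called different from both others in BMF, BID, BIK, HRK, PMAIP1 and BBC3, of which the BBC3 call against hairpin 3 lay at the threshold, and the call against hairpin 1 was lost for PMAIP1 without the first hairpin 2 library and for HRK without the first hairpin 1 library (adjusted p = 0.0694) or the third hairpin 2 library (adjusted p = 0.0619).

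**Figure D3:**
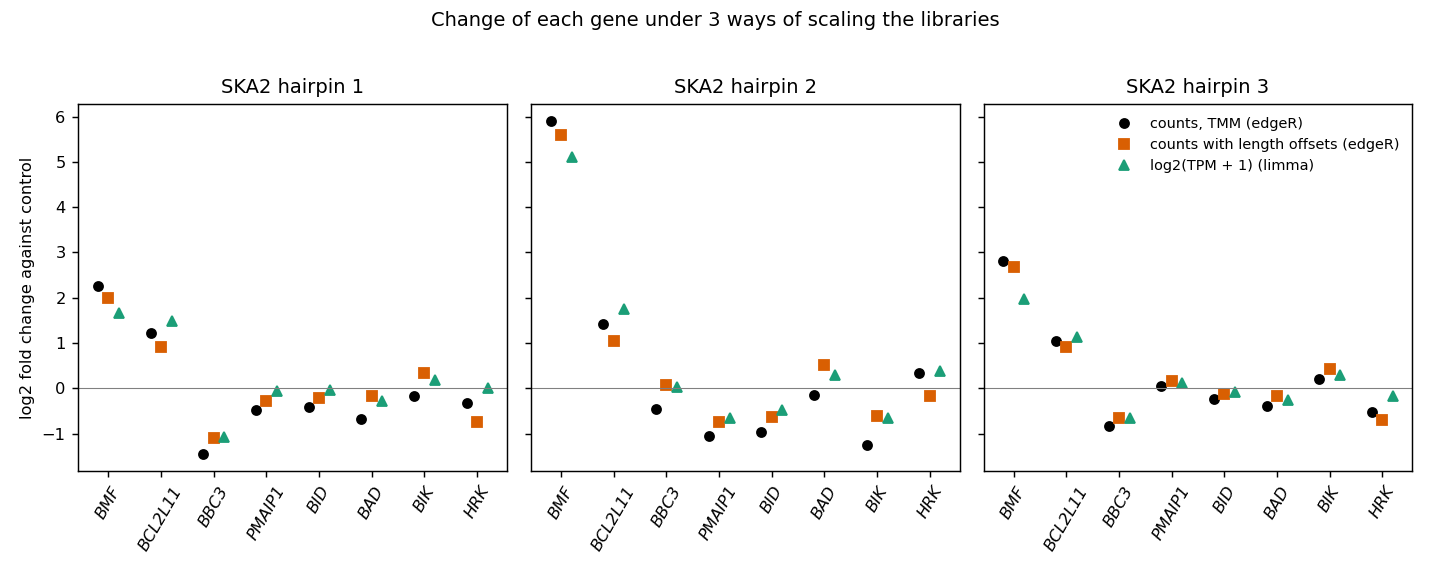
Log2 fold change of each BH3-only gene against the control for the 3 hairpins from counts with TMM scaling, from counts with offsets for transcript length, and from log2(TPM + 1). BMF and BCL2L11 stay above 0 under all 3, whereas BBC3, BAD and HRK with hairpin 2, and BIK and HRK with hairpin 1, change side.

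Per length, the order of the members in the control line was BAD at 94.7 ± 12.3 TPM, PMAIP1 at 70.8 ± 24.2, BBC3 at 51.9 ± 4.82, BID at 37.4 ± 0.997, BCL2L11 at 7.25 ± 2.03, BIK at 5.36 ± 0.402, HRK at 0.833 ± 0.240 and BMF at 0.757 ± 0.178 (SD, n = 3). Neighbours whose libraries overlapped were BAD with PMAIP1, PMAIP1 with BBC3, BCL2L11 with BIK, and HRK with BMF. BMF was the lowest of the 8 there, and 31.2% to 31.9% of the genes of the table had a lower TPM. With hairpin 2 it was the second, at 59.4 ± 1.23 TPM behind BAD at 115 ± 1.55 and above BBC3 at 52.8 ± 2.00, and 81.6% to 83.4% of genes lay below it. With hairpin 1, at 4.53 ± 0.359 TPM, and with hairpin 3, at 5.84 ± 0.409 TPM, it was the seventh, above HRK, and 40.1% to 46.1% of genes lay below it.

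The TPM of the 8 genes summed to 269 ± 12.7 in the control line, 236 ± 2.60 with hairpin 1, 328 ± 8.0 with hairpin 2 and 252 ± 4.28 with hairpin 3. BMF made up 0.280% of that sum in the control, 1.92% with hairpin 1, 18.1% with hairpin 2 and 2.31% with hairpin 3. Without BMF the sum was 269 ± 8.82 with hairpin 2 and 268 ± 12.6 in the control, but 231.5 ± 2.25 with hairpin 1 and 246.7 ± 3.96 with hairpin 3. Within the sum, BCL2L11 went from 2.68% in the control to 9.24%, 8.02% and 6.71% in order of hairpin number. PMAIP1 made up 26.1% in the control and 13.2% with hairpin 2, and BAD held 31.4% to 35.3% of it in each line. Because TPM is a share of each library, these values describe composition and not molecules per cell, and fewer cells of a kind and less RNA per cell cannot be told apart in bulk RNA.

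**Figure D4:**
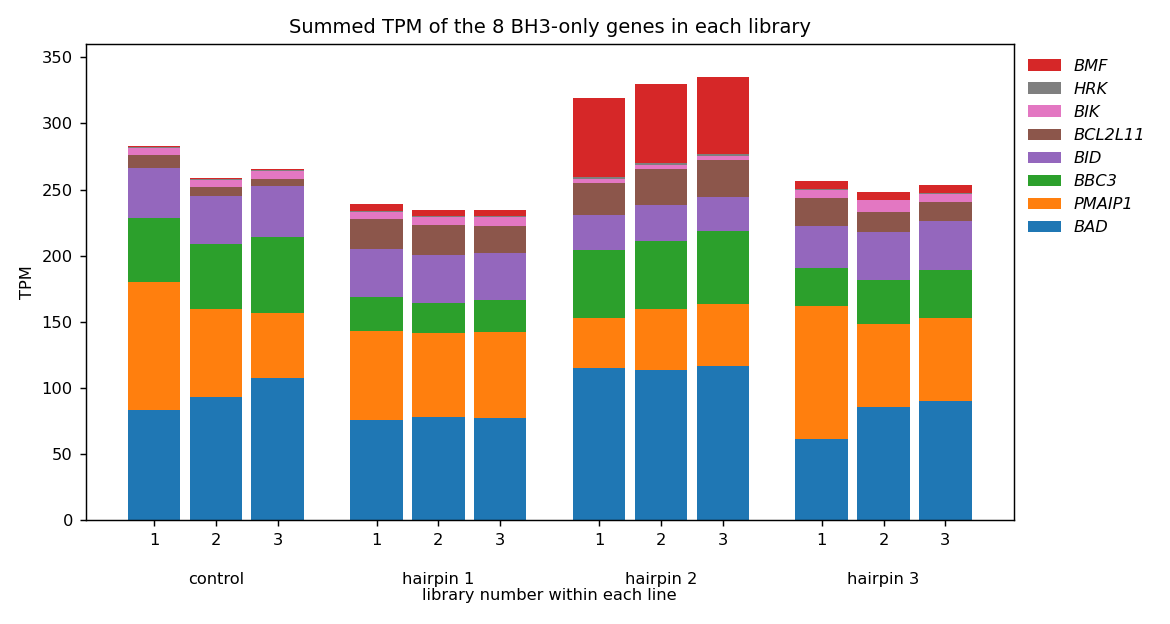
Stacked TPM (vertical axis, from 0) of the 8 BH3-only genes in each library, grouped by line. The hairpin 2 libraries reach 319 to 335 TPM against 259 to 283 in the control, with BMF at 58.0 to 60.3 TPM of each hairpin 2 column.

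The mRNAs of the proteins that BH3-only proteins act on also differed between lines. The effectors BAX, BAK1 and BOK form the pore or belong to its family. All 3 were called lower with hairpin 1, where the median was -0.61, and 2 of 3 with hairpin 2 and with hairpin 3. For this and the lists that follow, the shares of all tested genes called in the count-based fit are those given above. They are 31.5% higher and 31.5% lower with hairpin 1, 36.6% and 37.8% with hairpin 2, and 23.6% and 24% with hairpin 3. On the log2(TPM + 1) scale 6462 of 12868 tested genes were called higher and 1733 lower with hairpin 1. The numbers there were 6814 and 2694 with hairpin 2, and 3219 and 2071 with hairpin 3. With length offsets they were 3770 and 3975, 4688 and 4789, and 3498 and 3610 in order of hairpin number. BAX was at -0.61, -1.22 and -0.36 in order of hairpin number, BOK at -0.86, -0.28 and -0.83, and BAK1 at -0.48, -0.26 and -0.40. The exceptions were BAK1 with hairpin 2 (adjusted p = 0.0726) and BAX with hairpin 3 (adjusted p = 0.0773), and no effector was called higher in edgeR, nor higher at an unadjusted p under 0.05, nor by limma on the log2(TPM + 1) scale. The counts of lower effectors were 2, 1 and 3 with length offsets and 1, 1 and 1 on the log2(TPM + 1) scale, where BOK (0.16) and BAK1 (0.17) with hairpin 2 turned above 0. BAX with hairpin 1 was not called with length offsets (-0.08, adjusted p = 0.289). The guardians list of 6 genes had 5 tested, with 4 lower and 0 higher with hairpin 1, 3 lower and 1 higher with hairpin 2, and 3 lower and 0 higher with hairpin 3. Both counts of 0 higher were also 0 at an unadjusted p under 0.05. With length offsets 4, 4 and 5 were lower, and on the log2(TPM + 1) scale 2, 2 and 3 were lower in order of hairpin number, with 1 higher under hairpin 1 and 1 under hairpin 2.

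BCL2A1, a guardian bound by PMAIP1, showed the largest change of this list, from 31.5 ± 3.65 CPM in the control to 5.02, 2.70 and 5.66 CPM, or -2.65, -3.54 and -2.48 (adjusted p at most 2.37e-07, edgeR). BCL2L1, the guardian known as BCL-XL, fell from 370 ± 32.3 CPM to 193, 212 and 215 CPM, or -0.94, -0.80 and -0.78 (adjusted p at most 4.04e-05). BCL2L2 moved in opposite directions, at -0.72 with hairpin 1, 0.96 with hairpin 2 and -1.05 with hairpin 3, each called. On the log2(TPM + 1) scale the hairpin 1 value of BCL2L2 was -0.32 and not called (adjusted p = 0.0562). In the count-based fit MCL1 was called with hairpin 1, at -0.53 (adjusted p = 0.00187), and stood at -0.16 and -0.22 with the others. With length offsets MCL1 was called lower with each hairpin (-0.69, -0.33 and -0.31), and on the log2(TPM + 1) scale with none. BCL2 was called in the count-based fit with hairpin 2, at -0.50 (adjusted p = 0.016), and with length offsets also with hairpin 3 (-0.33, adjusted p = 0.0167). On the log2(TPM + 1) scale BCL2 stood at 0.61 (called, adjusted p = 0.0203), 0.11 and 0.17 (neither called) in order of hairpin number and MCL1 at 0.27 with hairpin 2, so these directions depend on the scaling, while BCL2A1 and BCL2L1 stayed lower with each hairpin. BCL2L10 was at or near 0 CPM and was not tested.

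Among 8 further BCL2-related and BH3-like genes 6 were tested, with 0 higher and 1 lower with hairpin 1, 3 higher and 2 lower with hairpin 2, and 0 higher and 1 lower with hairpin 3 (at an unadjusted p under 0.05, 2 were higher with hairpin 1 and 0 with hairpin 3). On the log2(TPM + 1) scale 3, 4 and 1 of them were higher and 0 lower, and with length offsets 1 higher and 0 lower, 4 and 1, and 1 and 1. Downstream of the pore, the 10 apoptosome and caspase genes had 4 higher and 4 lower with hairpin 1, 3 and 4 with hairpin 2, and 3 and 3 with hairpin 3. The log2(TPM + 1) scale gave 6 higher and 2 lower, 5 and 2, and 3 and 2. APAF1, the scaffold of the apoptosome, rose by 0.83, 0.89 and 0.88, and CYCS, the cytochrome that APAF1 senses, was at -0.31, -0.24 and -0.35, each called, although APAF1 with hairpin 2 was not called with length offsets (0.35, adjusted p = 0.0591). HTRA2 was called lower with each hairpin, at -0.75, -0.32 and -0.59. DIABLO, which like HTRA2 blocks inhibitors of caspases, was lower with hairpin 1 (-0.70) and hairpin 3 (-0.48) and at -0.26 with hairpin 2 (adjusted p = 0.11). With hairpin 2 the direction of both depends on the scaling, since HTRA2 stood at 0.10 and DIABLO at 0.25 with length offsets, and CYCS stood at 0.07 and 0.19 with hairpin 1 and hairpin 2 on the log2(TPM + 1) scale. In the death receptor arm upstream of BID, 10 of 11 genes were tested, with 2 higher and 3 lower, 2 higher and 4 lower, and 1 higher and 3 lower in order of hairpin number. These splits were 4 and 2, 4 and 2, and 2 and 2 on the log2(TPM + 1) scale, and 3 and 2, 2 and 5, and 2 and 3 with length offsets. The receptors TNFRSF10B (-0.98, -0.27 and -1.05) and TNFRSF1A (-0.94, -0.89 and -1.07) were lower with each hairpin, though TNFRSF10B with hairpin 2 was at 0.17 on the log2(TPM + 1) scale, and FAS was higher with hairpin 1 (0.38) and hairpin 3 (0.50).

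Binding partners of BH3-only proteins, and kinases and other enzymes that act on them, split between higher and lower in the count-based fit. Of 20 genes, 8 were higher and 5 lower with hairpin 1, 8 and 8 with hairpin 2, and 8 and 7 with hairpin 3. Length offsets gave 7 higher and 5 lower, 10 and 7, and 8 and 6. The split changed on the log2(TPM + 1) scale, which gave 14 higher and 0 lower, 13 and 4, and 6 and 2. On that scale all tested genes leaned higher too, with 6462 higher and 1733 lower of 12868 with hairpin 1. The numbers of all genes were 6814 and 2694 with hairpin 2, and 3219 and 2071 with hairpin 3. AKT1, which phosphorylates BAD, was lower with each hairpin, at -0.39, -1.20 and -0.54 (adjusted p at most 0.00125, edgeR), and so was the kinase PIM3, at -0.36, -1.29 and -0.62, whereas PIM2 was higher, at 0.42, 0.90 and 0.73. YWHAH, an adaptor that can bind phosphorylated BAD, was lower at -0.22, -1.04 and -0.27. With hairpin 1 the log2(TPM + 1) scale put AKT1 at 0.00, PIM3 at 0.02 and YWHAH at 0.16, so they were not lower there, while their hairpin 2 and hairpin 3 values were below 0 on each scale. A further pair of genes, chosen after their values were seen, are the light chains that tether BMF and BCL2L11. DYNLL2, the partner of BMF, was at 0.35, 0.08 and 0.57, called with hairpin 1 and hairpin 3, and DYNLL1, the partner of BCL2L11, was at -0.07, 0.06 and 0.41, called with hairpin 3. With length offsets DYNLL2 was at -0.16, -0.57 and 0.33 and DYNLL1 at 0.49, 0.74 and 0.61, so the direction of each with hairpin 1 or hairpin 2 depends on the scaling.

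Of the transcription factors reported to act on BH3-only genes, 17 of 18 were tested, with 6 higher and 7 lower with hairpin 1, 6 and 9 with hairpin 2, and 3 and 10 with hairpin 3. With hairpin 1 both counts lie within 2 genes of what the 31.5% of all genes called in each direction gives. The log2(TPM + 1) scale gave 7 and 5, 7 and 7, and 3 and 5, and length offsets gave 2 and 6, 4 and 10, and 3 and 10. The 4 with the smallest adjusted p were all lower with each hairpin. CEBPB was at -2.42, -2.82 and -2.65, and ATF4, the stress factor upstream of PMAIP1 and BBC3, at -1.83, -1.09 and -1.32. ATF3 was at -2.11, -0.51 and -0.75, and JUN at -1.24, -0.67 and -0.31. DDIT3 was lower as well, at -2.14, -1.02 and -1.99. CEBPB, ATF4 and DDIT3 stayed called as lower with each hairpin under the 2 other scalings, while ATF3 with hairpin 2 did not under either and JUN with hairpin 3 did not on the log2(TPM + 1) scale. The FOXO factors, known to act on BCL2L11 and on BMF, were higher with each hairpin, FOXO1 at 1.03, 2.37 and 0.73, FOXO3 at 0.77, 1.45 and 0.50, and FOXO4 at 0.29, 1.75 and 0.40 (adjusted p at most 0.0244). With length offsets FOXO4 with hairpin 1 lost its call (0.18, adjusted p = 0.122). DDIT3 and the FOXO genes were named after their values were seen. The FOXO mRNAs were highest in the hairpin 2 line, with FOXO1 at 10.5 CPM in the control and 21.4, 54.1 and 17.4 CPM in the knockdown lines. Of all tested genes, 28.2% were called higher with hairpin 2 than with hairpin 1. Unlike BMF, FOXO1 and FOXO3 (104 and 86.9 CPM) had higher means with hairpin 1 than with hairpin 3, while FOXO4 (12.5 and 13.4 CPM) did not. None of these differences was called. A link between the FOXO genes and BMF was not tested.

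Likeness was measured as Pearson's r of log2 CPM over the 12 libraries, among 12133 genes whose mean reached 1 CPM. It is a description over 4 lines, which share depth, hairpin and length trend. The 5 genes most like BMF were SLC2A3, a glucose transporter (r = 0.995), IP6K1 (0.995), UBE2D3 (0.994), PPP2CB (0.993) and the histone gene H4C15 (0.992), and 200 genes were above 0.95. Likeness in shape did not mean likeness in size. SLC2A3 went from 27.8 CPM in the control to 63.4, 419 and 86.3 CPM, while UBE2D3 went from 312 to 355, 427 and 358 CPM. For BCL2L11 the nearest were LGR4 and PCDHB13, for BBC3 FDXR and CAMLG, for PMAIP1 BORA and SERPINB5, for BID DCTPP1 and UNC93B1, for BAD ARFGAP1 and PSME2, for BIK UBE2L3 and DPM3, and for HRK GOLGA8H and FAM78B. HRK had the weakest best match, at 0.929. FDXR, at 0.993 to BBC3, is a mitochondrial reductase gene. Among the members, BMF was most like BCL2L11 (r = 0.84) and most opposed to BID (r = -0.899), and BBC3 was most like BAD (r = 0.90).

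**Figure D5:**
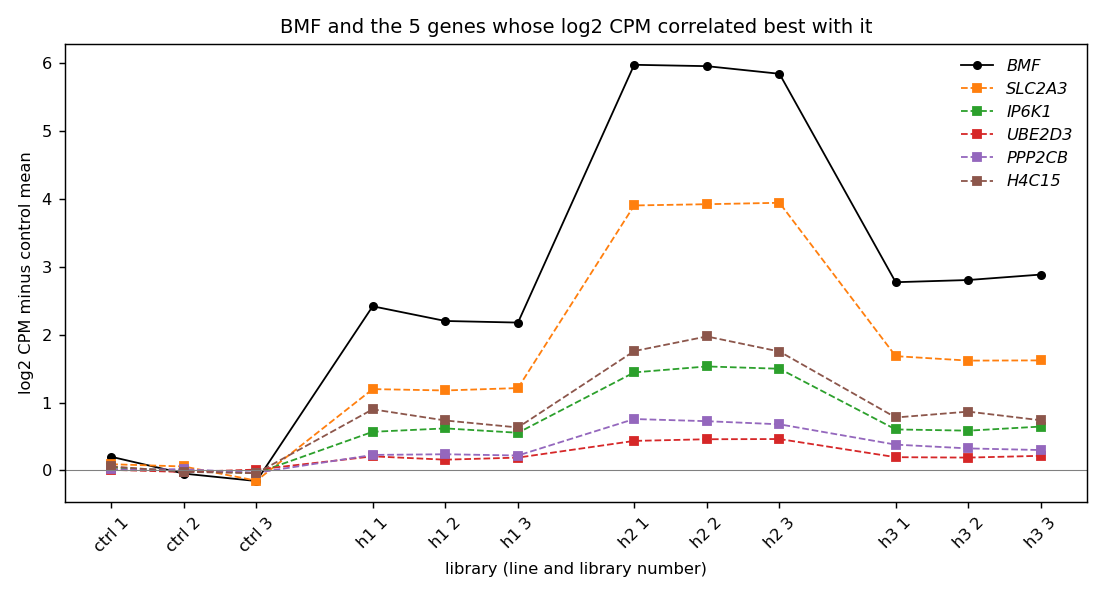
Log2 CPM of BMF and of the 5 genes with the highest Pearson r to it, each minus its mean over the control libraries, in the 12 libraries. All 6 genes are highest in the 3 hairpin 2 libraries, with BMF the steepest and UBE2D3 the flattest.

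The genes next to BMF did not all move in 1 direction. Of the genes in the table, EIF2AK4, SRP14 and BUB1B lie within 100 kb on either side. EIF2AK4, the amino acid sensing kinase upstream of ATF4, was higher with each hairpin, but modestly, at 0.64, 0.44 and 0.36 (adjusted p = 0.00131, 0.00735 and 0.0346, edgeR). SRP14 was at -0.39, -0.15 and 0.11, called with hairpin 1 alone. BUB1B, a mitotic checkpoint kinase, was higher with hairpin 1 (0.56) and hairpin 3 (0.49) and lower with hairpin 2 (-0.66), the line in which BMF was highest.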

How the data were processed

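Per the labels' protocols, polyadenylated RNA was fragmented and primed with random hexamers, and per the series' design text it was sequenced on the BGISEQ-500. The submitters' processing notes name build GRCh38.p13 and, with no role or version, the tools RSEM, HISAT, DESeq2 and Bowtie2. Deposited by the authors was an expected count per gene and library, of which 84% to 86% were whole per library. They also deposited FPKM and TPM values, scaled by the authors to length and depth per the file headers. A further 15 columns of group averages were not used.

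Expected counts were rounded and fitted with edgeR 4.0.16 in R 4.3.3 (TMM, filterByExpr, quasi-likelihood, 1 factor of 4 lines, 8 residual degrees of freedom), with Benjamini-Hochberg adjustment over 12868 genes and calls under 0.05, two-sided. SE is the change divided by the square root of F. Exact permutation tests of 3 against 3 libraries cannot go below p = 0.1 and were not used for calls. Alternatives were DESeq2 1.42.0, limma 3.58.1 on log2(TPM + 1) and log2(TPM + 0.1), offsets for length by lowess, other size factors, no filter, a threshold of 0.01, a replicate block, and leaving out libraries. Length offsets and the log2(TPM + 1) scale were also applied to the gene lists, a choice made after seeing the data. The procedure was tested on simulated data. Replicate numbers come from the sample titles. Their deviations from the line means correlated at 0.728, 0.17 and 0.6 between the control and hairpin 3 lines, above the limit of 0.1, and not so between the other pairs of lines. In the control and hairpin 3 lines 4 libraries, not all, had their best match in the library of the same number.

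The members, the 13 gene lists, the motifs and the tests were chosen with earlier results of these data known. Named were all members, SKA2, from each list up to 4 genes with the smallest adjusted p for the mean of the hairpins (lists of up to 6 in full), the 5 genes most like BMF and 2 for each other member, and genes within 100 kb of BMF. Promoter sequence before the start site came from RefSeq, and positions from GENCODE v29. The results of 1 gene list, 1 gene and 1 motif are not reported here.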

Additional observations from a re-analysis of the deposited data

Results flagged for a closer look

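In 4 comparisons of 2 hairpins, a member had opposite signs against the control and the difference between the hairpins was itself called in edgeR. PMAIP1 was at -1.05 with hairpin 2 and 0.04 with hairpin 3, a difference of 1.09 (adjusted p = 0.00019). BIK was at -1.26 with hairpin 2 and 0.21 with hairpin 3, a difference of 1.47 (adjusted p = 0.000212). HRK was at -0.34 with hairpin 1, 0.33 with hairpin 2 and -0.52 with hairpin 3. Its difference of hairpin 2 from hairpin 1 was 0.67 (adjusted p = 0.0175) and that of hairpin 3 from hairpin 2 was -0.85 (adjusted p = 0.00445). With offsets for length HRK was at -0.74, -0.18 and -0.70, so its signs against the control no longer differed, while both differences between hairpins stayed called (adjusted p = 0.0221 and 0.0316). The first HRK difference lost its call without the first hairpin 1 library (adjusted p = 0.0694) or the third hairpin 2 library (adjusted p = 0.0619).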

How the results depend on the processing

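BMF was above the control under every alternative run, and its differences of hairpin 2 from hairpins 1 and 3 kept their call in each. Its size moved with the scale. On the log2(TPM + 1) scale it was 1.66, 5.11 and 1.96 in order of hairpin number and 2.91 for their mean, with a pseudocount of 0.1 it was 2.45 with hairpin 1 and 6.14 with hairpin 2, and with length offsets it was 1.99, 5.59 and, for the mean, 3.42. With the 9 knockdown libraries as 1 group it was 4.58. The difference of hairpin 3 from hairpin 1 fell to 0.31 and 0.36 on the 2 TPM scales (adjusted p = 0.0681 and 0.111, limma). BBC3 with hairpin 2 turned from lower to 0.03 on both TPM scales (0.0278 and 0.0284) and to 0.0653 with length offsets. BAD turned to 0.512 with hairpin 2 and 0.0536 for the mean with length offsets. On the log2(TPM + 1) scale the median of all tested genes was 0.289, 0.332 and 0.124 in order of hairpin number, and 78.9%, 71.7% and 60.9% of the calls are then higher, against 50%, 49.2% and 49.6% from counts. The cause was not tested.

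Counts over the 7 other members changed as follows. Shares of all genes called were counted only for the main fit, the TPM scales, length offsets and other size factors. Under the remaining alternatives the counts below have no background beside them. Higher with hairpin 2 were 2 on both TPM scales and with length offsets. Of the 12868 tested genes, 6814 were higher there on log2(TPM + 1), 6826 on log2(TPM + 0.1) and 4688 with length offsets. Lower with hairpin 1 was 1 on both TPM scales, beside 1733 and 1720 of all tested genes, and 1 at a threshold of 0.01. Lower with hairpin 3 were 2 with length offsets, beside 3610 of all tested genes, and 1 to 4 when 1 library was left out. They were 3 without the first control and first hairpin 3 libraries, and 4 with the replicate block on the control and hairpin 3 libraries. Both of those last choices were made after seeing the data. Lower for the mean were 2 on both TPM scales, beside 2321 and 2322 of all tested genes, and 1 with the knockdown libraries as 1 group. Higher in hairpin 2 than in hairpin 1 was 1 at 0.01, 1 to 4 with 1 library left out, and 4 with length offsets, with only the compared libraries and without both first libraries. With length offsets 4339 of all tested genes were higher in that comparison. Higher in hairpin 3 than in hairpin 1 were 2 with DESeq2, 0 with only the compared libraries, 0 at 0.01, 0 to 4 with 1 library left out, and 5 without both first libraries, where 1 was lower. The replicate block over all 12 libraries changed no count, with 4 members lower with hairpin 1 as before. HRK, BIK and control BMF rest on few counts, so small differences were not detectable there.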
